A study of Homo sapiens with 8 samples.

Results

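The genes described here are 10 genes around the YAP pathway, taken from the deposited table by symbol: the CCN genes CTGF, CYR61 and NOV, the YAP target ANKRD1, the receptor gene AXL, YAP1 itself, and the pathway's own regulators AMOTL1, AMOTL2, LATS2 and AJUBA. All 10 were found among the table's 22504 genes, and all 10 were among the 12996 genes tested. The study used U2OS, an established human osteosarcoma line. One kind of cell overexpressed the actin mutant G13R, and the control kind expressed GFP. Both kinds were grown normally or stimulated with serum, which gave 4 groups of 2 libraries, 8 in all, from poly(A) RNA sequenced on an Illumina HiSeq instrument. G13R is known as an actin that does not polymerize. Which actin gene carries the mutation, the vector and its promoter, whether the cells were clones or pools, and how long serum was given are not given in the sources used here. The sample titles name the conditions only as Normal and Serum, and do not say that normal growth was without serum. Nothing says that the 2 libraries of a group came from separate cultures, so the p-values measure only the spread between libraries, which may be technical.

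YAP1 and its paralog TAZ (gene WWTR1) are transcriptional coactivators that bind DNA through TEAD factors. The Hippo kinases LATS1 and LATS2 phosphorylate YAP and keep it in the cytoplasm, and angiomotin-family proteins such as AMOTL1 and AMOTL2 also hold it there, while AJUBA-family scaffolds bind and restrain LATS. Serum and the state of actin filaments are known inputs to YAP. CTGF and CYR61 are standard readouts of the pathway, and several of its brakes, among them AMOTL2 and LATS2, are themselves known targets.

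TEAD factors recognise the core GGAATG, read as CATTCC on the other strand, so the stretches that hold it near the start sites are shown here. RefSeq promoter windows of 300 bases (250 before the start and the first 50 of the transcript, build GRCh38.p14) were matched for 8 of the 10 genes, in 11 windows. CYR61 and NOV had no window. The core was searched on both strands. It stood in 7 of the 11 windows, 1 window in each of 7 genes, and in 14.0% of all 35116 windows. The CTGF window held 3 cores, at -169 to -164, -104 to -99 and -95 to -90 from the start, and 0.128% of all windows held 3 or more. ANKRD1 held 2, at -220 to -215 and -128 to -123, and 1.37% of all windows held 2 or more. The 250 bases before the start of these 2 genes are printed 5′ to 3′ on the gene's strand, with every TEAD core in capitals.
CTGF, chr6:131951373-131951622, minus strand: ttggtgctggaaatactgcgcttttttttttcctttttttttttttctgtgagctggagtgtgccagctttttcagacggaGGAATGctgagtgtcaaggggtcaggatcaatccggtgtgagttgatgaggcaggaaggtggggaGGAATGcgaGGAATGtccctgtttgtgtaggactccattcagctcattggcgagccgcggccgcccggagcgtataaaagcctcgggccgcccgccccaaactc
ANKRD1, chr10:90921088-90921337, minus strand: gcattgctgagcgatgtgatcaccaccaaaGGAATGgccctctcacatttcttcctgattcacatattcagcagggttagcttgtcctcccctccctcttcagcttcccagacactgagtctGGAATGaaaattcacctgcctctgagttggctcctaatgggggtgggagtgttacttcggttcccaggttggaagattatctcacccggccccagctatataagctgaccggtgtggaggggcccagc
Among genes with 1 core, 46 bases around it are shown for AMOTL2, AJUBA, AXL and YAP1 so that the single cores can be set beside the clustered ones. In AMOTL2 and AXL the core lies on the other strand and reads CATTCC.
AMOTL2, chr3:134374491-134374536, minus strand: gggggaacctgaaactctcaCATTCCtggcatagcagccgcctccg
AJUBA, chr14:22976876-22976921, minus strand: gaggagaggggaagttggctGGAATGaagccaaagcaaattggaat
AXL, chr19:41226523-41226568, plus strand: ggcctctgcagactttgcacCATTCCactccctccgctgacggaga
YAP1, chr11:102110265-102110310, plus strand: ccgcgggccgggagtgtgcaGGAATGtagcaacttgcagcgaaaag
The core of LATS2 lay within the transcript, at 10 to 15 bases from the start, and AMOTL1 had none in its window. TGANTCA (N is any base, both strands), a pattern looser than the AP-1 site TGA(C/G)TCA, was found only in the ANKRD1 window, at -195 to -189. It stood in 7.71% of all windows. The ANKRD1 match reads TGATTCA, so none of the 11 windows held the stricter AP-1 site. The CArG box, the element bound by SRF, was found in 0 of the 11 windows and in 1.29% of all. A match is a run of letters, and these files say nothing of whether a factor was bound.

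**Figure D1:**
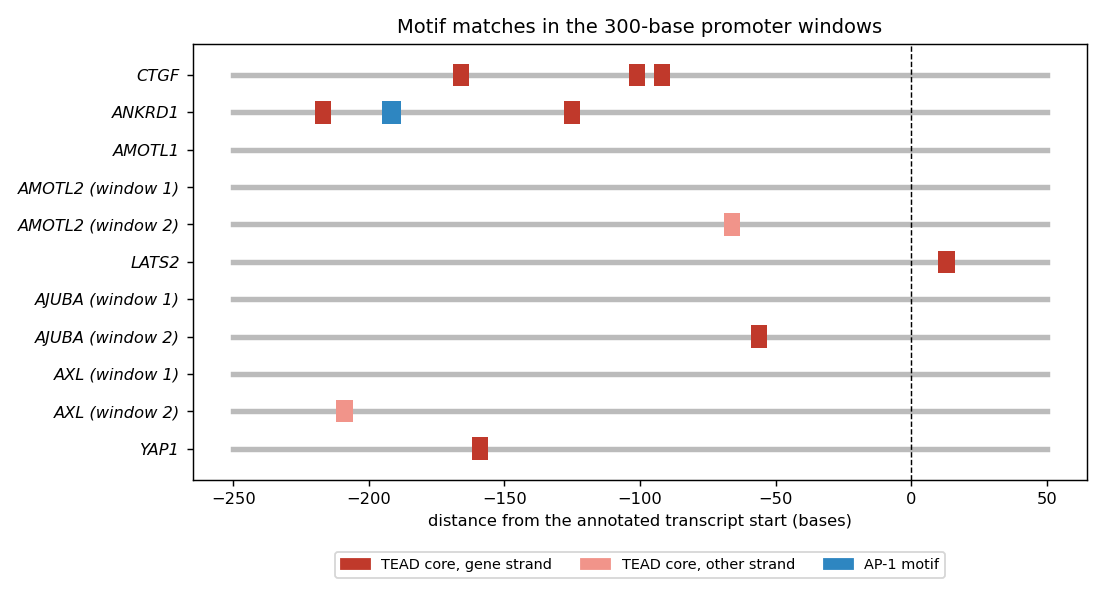
Positions of the TEAD core GGAATG (either strand) and of the loose AP-1 pattern TGANTCA in the promoter windows of the 8 genes with a RefSeq window, in bases from the start site. CTGF holds 3 cores, and ANKRD1 holds 2 cores and a match to the loose pattern that reads TGATTCA. CYR61 and NOV had no window.

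The values are FPKM, fragments scaled to transcript length and to the mapped fragments of a library, and they hold no read counts, so sequencing depth is unknown and no counting interval can be given. FPKM sums ran from 496166 to 559496 over the 8 libraries, and 12065 to 12568 genes reached 1 FPKM. The 2 GFP serum libraries differed most: 186 genes differed over 2-fold between them, against 87 to 102 within the other groups. This count cannot tell which of the 2 stood apart. Calls of the 10 genes that were lost without replicate 2 of GFP serum are named. Of the list counts, only that of the wider YAP and TEAD signature is given also without it. Counts at unadjusted p and of groups that do not overlap are not. ACTB, the beta-actin gene, was 3.95 times higher in G13R than in GFP cells in normal growth and 3.22 times after serum. A marker was counted where it reached 1 FPKM in at least 1 library. Of the osteoblast-lineage markers, 6 of 8 did. Their summed level was 601 to 688 FPKM in GFP normal, 693 to 848 in GFP serum, 470 to 512 in G13R normal and 546 to 592 in G13R serum, and SPARC made up most of it, with group means of 559.2, 685.0, 404.0 and 489.6 FPKM in the same order. Other markers of the list ordered the groups differently: SPP1 was highest in G13R normal (41.34 FPKM) and ALPL in G13R serum (9.987 FPKM). Of the epithelial markers 5 of 6 reached 1 FPKM, KRT14 only in GFP serum replicate 2 (3.848 FPKM). All 6 summed to 7.16 to 10.1 FPKM in GFP normal, 17.8 to 19.2 in GFP serum, 7.39 to 10.6 in G13R normal and 13.6 to 14.4 in G13R serum. CLDN4 carried the higher sums after serum, with means of 2.306 and 11.6 FPKM in GFP cells and 2.916 and 10.06 in G13R cells, while CDH1 went from 3.273 to 0.9926 and from 2.681 to 0.8913 FPKM and was not called. Of the endothelial markers 1 of 6 reached 1 FPKM and PECAM1 was listed at 0 in all 8 libraries. Of the neural markers, GFAP reached 1 FPKM only in G13R normal replicate 2 (1.262 FPKM), and RBFOX3 had group means of 8.312 to 12.82 FPKM. In all, 4 of 6 neural markers reached 1 FPKM. Of the leukocyte markers 2 of 6 did, and LCP1 had group means of 2.595 to 6.579 FPKM. The part of these markers in the results was not tested. In bulk RNA, fewer cells with a transcript and less of it per cell cannot be told apart.

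CTGF, CYR61 and ANKRD1 rose after serum in both kinds of cell, and NOV rose in GFP cells. AXL, YAP1, AMOTL1, AMOTL2 and LATS2 did not pass the test in any comparison, and AJUBA passed it only for serum in G13R cells. In GFP cells 4 of the 10 genes were called higher (limma, Benjamini-Hochberg adjusted p under 0.05 over all genes tested) and 0 lower, where 14.9% of all genes tested were called higher and 15.7% lower. In G13R cells 4 of 10 were called higher and 0 lower, where 8.26% of all genes were called higher and 4.62% lower. Without GFP serum replicate 2, the count in GFP cells was 3 of 10, with NOV lost, where 8.56% of all genes tested in that fit were called higher and 10.8% lower. The median log2 fold change of the 10 genes was 0.299 in GFP cells beside 0.012 over all genes tested, and 0.318 in G13R cells beside 0.043. The 10 genes were chosen with earlier results of these data known, so these counts and medians are description only. Fold changes below are on the log2(FPKM + 1) scale with their standard errors (SE), and ratios are of mean FPKM.

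**Figure D2:**
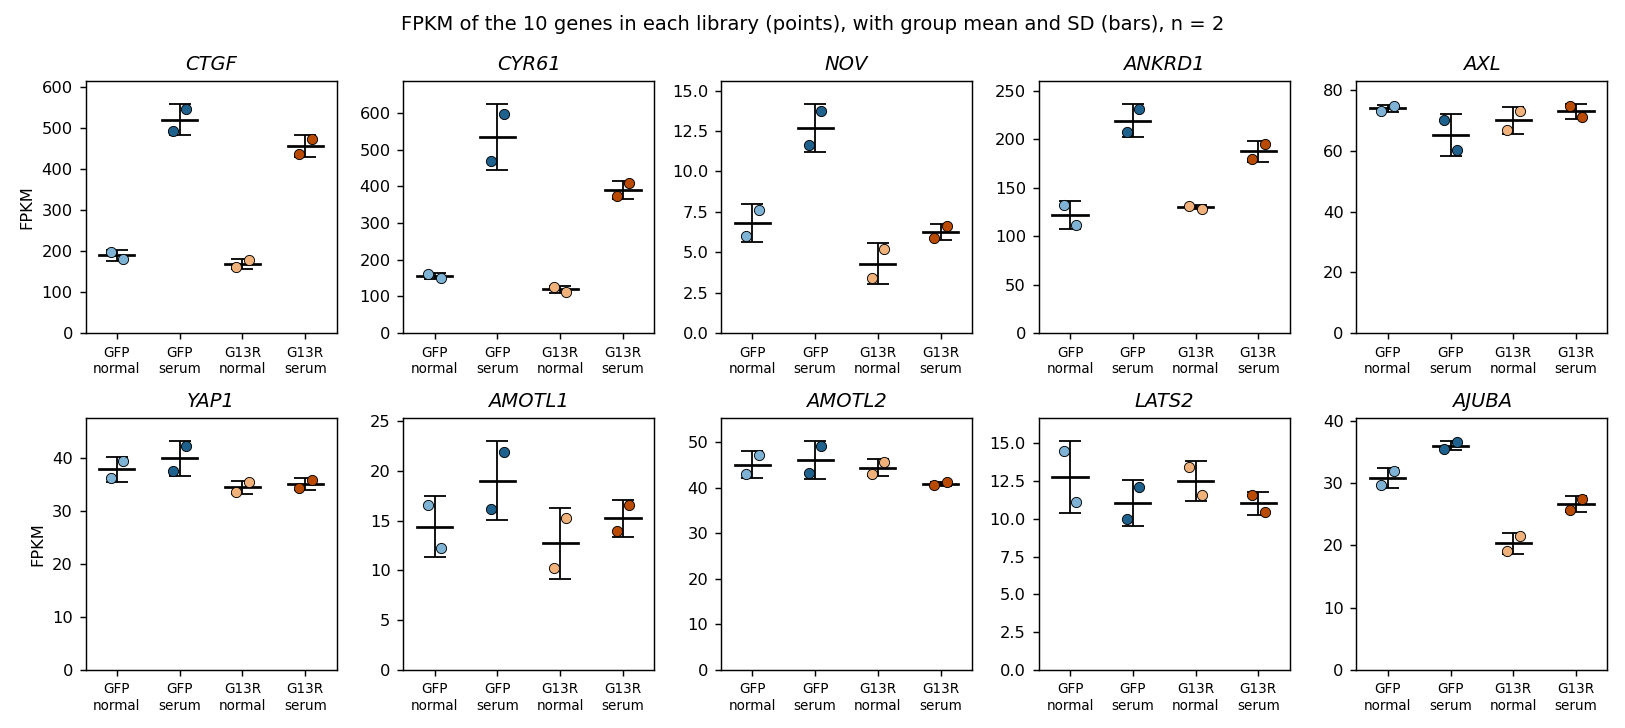
FPKM of the 10 genes in each library (points), with the group mean (line) and SD (error bars), n = 2 libraries per group; each panel has its own axis from 0. CTGF, CYR61 and ANKRD1 stand higher in all serum libraries than in all normal-growth libraries, while AXL, YAP1, AMOTL1, AMOTL2 and LATS2 show overlapping groups or small steps.

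CTGF encodes connective tissue growth factor, a secreted matricellular protein (chromosome 6, 132269316 to 132272513, hg19, the whole gene span). It read 198.3 and 180.0 FPKM in GFP normal, 492.8 and 546.8 in GFP serum, 160.1 and 177.4 in G13R normal, and 436.5 and 473.6 in G13R serum. Every serum library lay above every normal-growth library, and within a condition both GFP libraries lay above both G13R libraries. In GFP cells the mean rose from 189.1 ± 12.92 to 519.8 ± 38.19 FPKM (SD, n = 2), a ratio of 2.75 (log2 fold change 1.45 ± 0.09 SE, limma adjusted p = 2.25e-05). In G13R cells it rose from 168.8 ± 12.29 to 455.0 ± 26.24 FPKM, a ratio of 2.7 (1.43 ± 0.09, limma adjusted p = 4.11e-05). By FPKM, CTGF was already an abundant transcript, at rank 406 and 486 in the GFP normal libraries and 133 and 138 in the GFP serum libraries.

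CYR61 encodes a secreted matricellular protein of the same family that binds integrins (chromosome 1, 86046444 to 86049645). It read 162.2 and 149.9 FPKM in GFP normal, 470.6 and 598.6 in GFP serum, 125.1 and 112.9 in G13R normal, and 373.9 and 408.7 in G13R serum. The 4 groups followed the same order as for CTGF, GFP serum above G13R serum above GFP normal above G13R normal, with no overlap between neighbours. Serum raised it 3.43-fold in GFP cells, from 156.0 ± 8.642 to 534.6 ± 90.55 FPKM (1.76 ± 0.11, limma adjusted p = 2.52e-05). In G13R cells it rose 3.29-fold, from 119.0 ± 8.667 to 391.3 ± 24.63 FPKM (1.71 ± 0.11, limma adjusted p = 4.11e-05). Ordered by fold change, CYR61 was gene 112 and CTGF gene 199 of 12996 in GFP cells, and gene 40 and gene 79 in G13R cells. Together the 3 CCN genes took 0.0675 and 0.0603% of the FPKM sum in GFP normal and 0.19 and 0.215% in GFP serum. In G13R cells their share was 0.0582 and 0.0571% in normal growth and 0.163 and 0.175% after serum.

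CTGF was the more abundant of the pair in 7 of 8 libraries, per length. The ratio of CTGF to CYR61 was 1.22 and 1.2 in GFP normal, 1.05 and 0.913 in GFP serum, 1.28 and 1.57 in G13R normal, and 1.17 and 1.16 in G13R serum. CYR61 was the higher only in replicate 2 of GFP serum.

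NOV, the third CCN gene (chromosome 8, 120428546 to 120436593), encodes a secreted protein of the same family and was far lower in FPKM, a level per length. It read 5.996 and 7.641 FPKM in GFP normal, 11.64 and 13.74 in GFP serum, 3.379 and 5.176 in G13R normal, and 5.908 and 6.617 in G13R serum. Serum-treated G13R cells thus overlapped GFP cells in normal growth. NOV rose 1.86-fold in GFP cells (0.81 ± 0.20, limma adjusted p = 0.0122). That call was lost without GFP normal replicate 1 or without GFP serum replicate 2, with an adjusted p of up to 0.0926. In G13R cells the ratio was 1.46 (0.48 ± 0.20, limma adjusted p = 0.138), which did not pass the test.

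ANKRD1 encodes a nuclear ankyrin-repeat cofactor first known from heart and skeletal muscle and widely used as a YAP readout (chromosome 10, 92671853 to 92681033). It read 132.0 and 111.9 FPKM in GFP normal, 207.1 and 231.4 in GFP serum, 131.2 and 128.1 in G13R normal, and 179.9 and 195.2 in G13R serum. The normal-growth groups overlapped, and the GFP serum libraries lay above the G13R serum libraries. It rose 1.8-fold in GFP cells (0.84 ± 0.10, limma adjusted p = 0.000314) and 1.45-fold in G13R cells (0.53 ± 0.10, limma adjusted p = 0.00821). The second call was lost without either G13R normal library or without G13R serum replicate 2, with an adjusted p of up to 0.0822.

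AXL, a receptor tyrosine kinase for the ligand GAS6, is listed as a YAP target in other cells (chromosome 19, 41725108 to 41767671). It read 73.25 and 74.84 FPKM in GFP normal, 70.02 and 60.34 in GFP serum, 66.73 and 73.23 in G13R normal, and 74.69 and 71.17 in G13R serum. The groups lay close together, with a log2 fold change of -0.19 after serum in GFP cells (limma adjusted p = 0.173) and 0.06 in G13R cells (limma adjusted p = 0.724). Without GFP serum replicate 1, AXL was called lower in GFP cells (adjusted p = 0.0459).

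YAP1, the coactivator itself, was not called at the transcript level (chromosome 11, 101981192 to 102104154). It read 36.16 and 39.49 FPKM in GFP normal, 37.6 and 42.29 in GFP serum, 33.62 and 35.35 in G13R normal, and 34.23 and 35.91 in G13R serum. Its log2 fold change after serum was 0.08 in GFP cells, with a 95% interval of -0.15 to 0.3, and 0.02 in G13R cells, with an interval of -0.2 to 0.25. All 4 G13R libraries lay below all 4 GFP libraries, by as little as 35.91 FPKM (G13R serum replicate 2) against 36.16 (GFP normal replicate 1). The FPKM sums of these libraries were 507426 and 542653, so the separation may depend on the scaling. Neither G13R against GFP comparison passed the test. YAP activity is controlled largely through phosphorylation and location of the protein, which these data do not measure.

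Of the brakes on YAP, AMOTL1, AMOTL2 and LATS2 were not called in any comparison. AMOTL2, which retains YAP at junctions and in the cytoplasm (chromosome 3, 134074716 to 134094321), read 43.0 and 47.13 FPKM in GFP normal, 43.2 and 49.11 in GFP serum, 43.01 and 45.72 in G13R normal, and 40.48 and 41.16 in G13R serum. Its log2 fold change after serum was 0.03 in GFP cells, with a 95% interval of -0.19 to 0.25, and -0.12 in G13R cells (limma adjusted p = 0.473). AMOTL1, its paralog (chromosome 11, 94439597 to 94609918), read 16.62 and 12.22 FPKM in GFP normal, 16.21 and 21.89 in GFP serum, 10.21 and 15.27 in G13R normal, and 13.93 and 16.54 in G13R serum. Neighbouring groups in the order of its levels overlapped throughout, and its libraries differed by up to 1.5 times within a group. LATS2, the kinase (chromosome 13, 21547171 to 21635718), read 14.48 and 11.11 FPKM in GFP normal, 9.966 and 12.11 in GFP serum, 13.46 and 11.56 in G13R normal, and 11.57 and 10.46 in G13R serum. The LATS2 groups also overlapped, with log2 fold changes of -0.19 and -0.17 after serum in GFP and G13R cells (limma adjusted p = 0.402 and 0.535).

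AJUBA encodes a LIM scaffold that binds LATS kinases and limits their action on YAP (chromosome 14, 23440383 to 23451851). It read 29.67 and 32.01 FPKM in GFP normal, 35.49 and 36.59 in GFP serum, 19.11 and 21.49 in G13R normal, and 25.68 and 27.52 in G13R serum. Unlike the order of CTGF and CYR61, both GFP groups lay above both G13R groups, and no 2 groups overlapped. Serum raised it 1.31-fold in G13R cells (0.38 ± 0.11, limma adjusted p = 0.0444), a call lost in 10 of 16 alternative settings, among them leaving out any 1 of the 4 G13R libraries or of the 2 GFP normal libraries, with an adjusted p of up to 0.226. In GFP cells the log2 fold change was 0.22 ± 0.11 (limma adjusted p = 0.143).

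**Figure D3:**
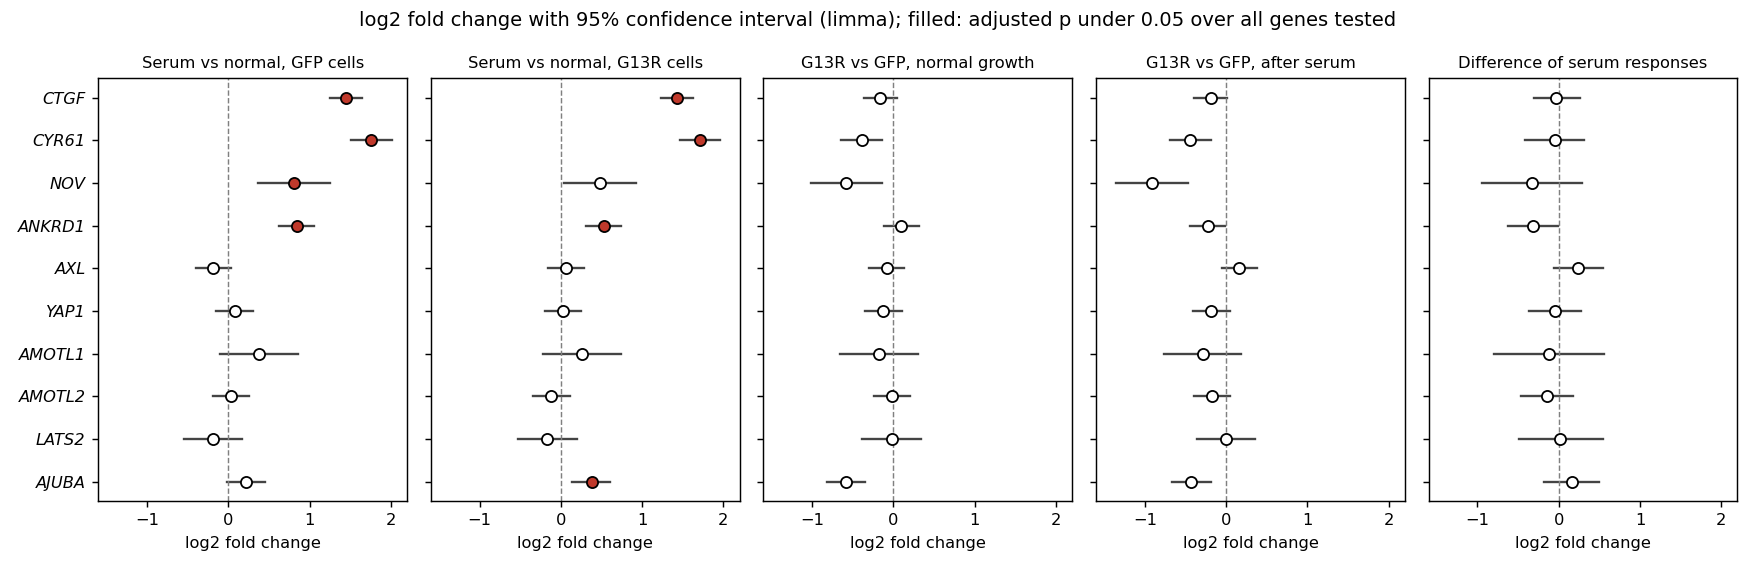
Log2 fold changes (on log2(FPKM + 1)) of the 10 genes in the 2 serum comparisons, the 2 G13R against GFP comparisons and the difference of the serum responses (points), with 95% intervals from limma (lines); filled points were called. CYR61 and CTGF stand farthest right for serum in both kinds of cell, and for G13R against GFP the lowest points are NOV, AJUBA and CYR61.

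For G13R against GFP cells, 0 of the 10 genes were called in either condition. In normal growth limma called 0.0462% of all genes tested, and after serum 0.823%. At an unadjusted p under 0.05 the counts were 3 of 10 in normal growth, beside 15.1% of all genes, and 4 of 10 after serum, beside 20.8%. Both G13R libraries lay below both GFP libraries for 6 of 10 genes in normal growth, where 34.3% of all genes did. After serum they did for 7 of 10, where 29.4% of all genes did. These counts use FPKM as deposited and were not repeated under other scalings. In normal growth the FPKM sums were 496166 and 517504 in G13R cells and 542653 and 559496 in GFP cells. The log2 fold change was below 0 for 9 of 10 genes in normal growth, beside 64.0% of all genes, but for 7 of 10 under median-ratio scaling and 6 of 10 under quantile normalization. After serum it was below 0 for 8 of 10, beside 55.0% of all genes, and for 8 of 10 under both scalings. The median log2 fold change of the 10 genes was -0.146 in normal growth beside -0.074 over all genes, and -0.207 after serum beside -0.033. The groups are the same libraries as in the serum comparisons, so these values are not independent of those above.

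AJUBA and NOV had the lowest log2 fold changes of the 10 genes in normal growth, and NOV and CYR61 after serum. AJUBA was at 20.3 ± 1.686 FPKM in G13R against 30.84 ± 1.657 in GFP in normal growth (SD, n = 2), a ratio of 0.658 (log2 fold change -0.58 ± 0.11, limma adjusted p = 0.0844). After serum its ratio was 0.738 (-0.43 ± 0.11, limma adjusted p = 0.0789). In limma, AJUBA was called lower in normal growth when either GFP serum library was left out (adjusted p down to 0.045), and after serum without GFP serum replicate 1 (adjusted p = 0.0478). That left GFP serum with its replicate 2 alone, whose spread was taken to be like that of the other groups. NOV was at 0.627 of its GFP level in normal growth (-0.58 ± 0.20, limma adjusted p = 0.225) and at 0.494 after serum (-0.91 ± 0.20, limma adjusted p = 0.0583). After serum, NOV was called lower with a filter at 5 FPKM and without GFP serum replicate 1 (adjusted p = 0.0246 in the second case).

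CYR61 was at 0.763 of its GFP level in normal growth (-0.39 ± 0.11, limma adjusted p = 0.181) and at 0.732 after serum (-0.44 ± 0.11, limma adjusted p = 0.0843). It was called lower after serum without GFP serum replicate 1 (adjusted p = 0.0048), and without any other library it was not called. CTGF was closer, at 0.892 in normal growth, with a 95% interval of -0.36 to 0.04 for its log2 fold change, and at 0.875 after serum, with an interval of -0.39 to 0.01. Over the alternative settings other than leaving out 1 library, the CTGF log2 fold change in normal growth ran from -0.165 to -0.009. That of YAP1 ran from -0.132 to -0.021. ANKRD1 was at 0.855 of its GFP level after serum (-0.22 ± 0.10, limma adjusted p = 0.229) and did not stand lower in normal growth, at a log2 fold change of 0.09. For AXL, AMOTL1, AMOTL2, LATS2 and YAP1 the log2 fold changes of G13R against GFP ran from -0.29 to 0.16 over both conditions.

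Whether the serum response itself differed between G13R and GFP cells was tested as the difference of the 2 responses. None of the 10 genes was called, and limma called 0.0% of all 12996 genes. At an unadjusted p under 0.05 it was 1 of 10, beside 11.8% of all genes. For CTGF the difference in log2 fold change was -0.03, with a 95% interval of -0.31 to 0.26, and for CYR61 it was -0.05, with an interval of -0.41 to 0.31. ANKRD1 was the 1 gene with an unadjusted p under 0.05, at -0.32 ± 0.14 (95% interval -0.62 to -0.01, limma adjusted p = 0.412). For NOV the difference was -0.33, with an interval of -0.95 to 0.29, so the call in GFP cells and its absence in G13R cells is not shown to be a difference.

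The other genes of the pathway were read from lists by role. Among 14 tested genes of a wider YAP and TEAD signature, 6 rose and 4 fell after serum in GFP cells, and 3 rose and 1 fell in G13R cells. Of all genes tested, 14.9% were called higher and 15.7% lower in GFP cells, and 8.26% and 4.62% in G13R cells. MYOF, which repairs membranes, rose from 25.73 to 61.98 FPKM in GFP cells (1.24 ± 0.11, limma adjusted p = 8.56e-05) and from 19.79 to 44.57 in G13R cells (1.13 ± 0.11, limma adjusted p = 0.000346). F3, tissue factor, rose by 1.08 ± 0.16 in GFP cells and 0.69 ± 0.16 in G13R cells (limma adjusted p = 0.00127 and 0.0239). PTPN14, a phosphatase that binds YAP, rose in GFP cells (1.19 ± 0.16, limma adjusted p = 0.000662). CCDC80, a matrix protein, fell in both, by a log2 fold change of -0.78 ± 0.17 in GFP cells, where it was chosen after its values were seen, and -0.96 ± 0.17 in G13R cells (limma adjusted p = 0.00725 and 0.00667). The signature's median was 0.33 in GFP cells and 0.12 in G13R cells. Without GFP serum replicate 2, 3 of the 14 were called higher and 4 lower in GFP cells, beside 8.56% and 10.8% of all genes in that fit. The call of F3 in G13R cells was lost without any 1 of the 4 G13R libraries (adjusted p up to 0.145), and that of CCDC80 without G13R normal replicate 1 or G13R serum replicate 2 (up to 0.0663). In GFP cells CCDC80 lost its call without GFP normal replicate 2 (0.0605).

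Among 20 tested Hippo kinases and scaffolds, 3 rose and 4 fell in GFP cells, and 1 rose in G13R cells. These shares are near those of all genes in GFP cells (14.9% higher and 15.7% lower) and below that of all genes in G13R cells (8.26% higher), so the counts are no result about the list. SAV1, the scaffold of the MST kinases, was called in both, at 1.14 ± 0.10 in GFP cells, from 33.12 to 74.05 FPKM (limma adjusted p = 7.73e-05), and 0.65 ± 0.10 in G13R cells (limma adjusted p = 0.00317). WWC1 fell in GFP cells (-0.81 ± 0.16) while WWC3 rose (0.82 ± 0.18). Of 7 tested YAP partners and competitors, TEAD2 (0.77 ± 0.21) and WWTR1, which encodes TAZ (0.52 ± 0.15), rose and TEAD4 fell (-0.67 ± 0.14) in GFP cells (limma adjusted p = 0.0224, 0.028 and 0.00674). VGLL3, a cofactor that binds TEADs, fell in G13R cells (-0.79 ± 0.21, limma adjusted p = 0.0378), where 4.62% of all genes were called lower. These 4 calls rested on few libraries: that of TEAD2 was lost without either GFP normal library or GFP serum replicate 2 (adjusted p up to 0.149), and that of WWTR1 without GFP normal replicate 1 or GFP serum replicate 2 (up to 0.168). TEAD4 lost its call without GFP normal replicate 2 (up to 0.0587), and VGLL3 without any 1 of the 4 G13R libraries (up to 0.213). The WISP1, WISP2 and WISP3 genes, the remaining CCN family, were too low to test; WISP1 reached 1 FPKM in 1 library only, GFP serum replicate 2, at 2.55.

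AMOT, the founding angiomotin and the paralog of AMOTL1 and AMOTL2, was low in normal growth and had the largest rise of the listed genes in GFP cells. It read 1.963 and 1.762 FPKM in GFP normal, 8.375 and 11.5 in GFP serum, 1.614 and 1.914 in G13R normal, and 3.815 and 3.581 in G13R serum. The serum groups did not overlap, with GFP serum above G13R serum. AMOT rose in GFP cells (1.92 ± 0.19, limma adjusted p = 0.000149) and in G13R cells (0.77 ± 0.19, limma adjusted p = 0.0288), the second call being lost without any 1 of the 4 G13R libraries (adjusted p up to 0.145). Of the genes tested in the pathway, ligand and receptor lists (20, 7, 3, 14, 4 and 7 per list), AMOT was the 1 called between G13R and GFP cells. After serum 0.823% of all genes were called, so this count is no result about the lists. AMOT was at 0.372 of its GFP level after serum (-1.20 ± 0.19, limma adjusted p = 0.0376). That call held in 6 of 16 alternative settings, and was lost without any 1 library other than GFP serum replicate 1, with an adjusted p of up to 0.349. The difference of its responses, -1.15 ± 0.27, was not called (limma adjusted p = 0.261).

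Ligand and receptor genes for AXL and the CCN proteins were also read. Of 4 tested TAM receptor and ligand genes, the family of AXL, GAS6 alone was called. Of all genes, 14.9% were called higher in GFP cells and 8.26% in G13R cells. GAS6, the ligand of AXL, rose in GFP cells (1.13 ± 0.14, limma adjusted p = 0.000472) and G13R cells (0.90 ± 0.14, limma adjusted p = 0.00382), while AXL itself was not called. Of 7 tested receptor genes for CCN proteins, 4 rose and 2 fell in GFP cells, and 2 rose and 2 fell in G13R cells, beside the 14.9% higher and 15.7% lower of all genes in GFP cells and 8.26% and 4.62% in G13R cells. LRP1 rose by 1.20 ± 0.18 and 0.74 ± 0.18, and the integrin gene ITGB5 by 0.67 ± 0.08 and 0.51 ± 0.08, in GFP and G13R cells. In G13R cells the call of LRP1 was lost without any 1 of the 4 G13R libraries (adjusted p up to 0.147) and that of ITGB5 without G13R serum replicate 2 (0.0601). ITGA5, the alpha subunit of the fibronectin receptor, fell in both, at -0.81 ± 0.10 and -0.61 ± 0.10.

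**Figure D4:**
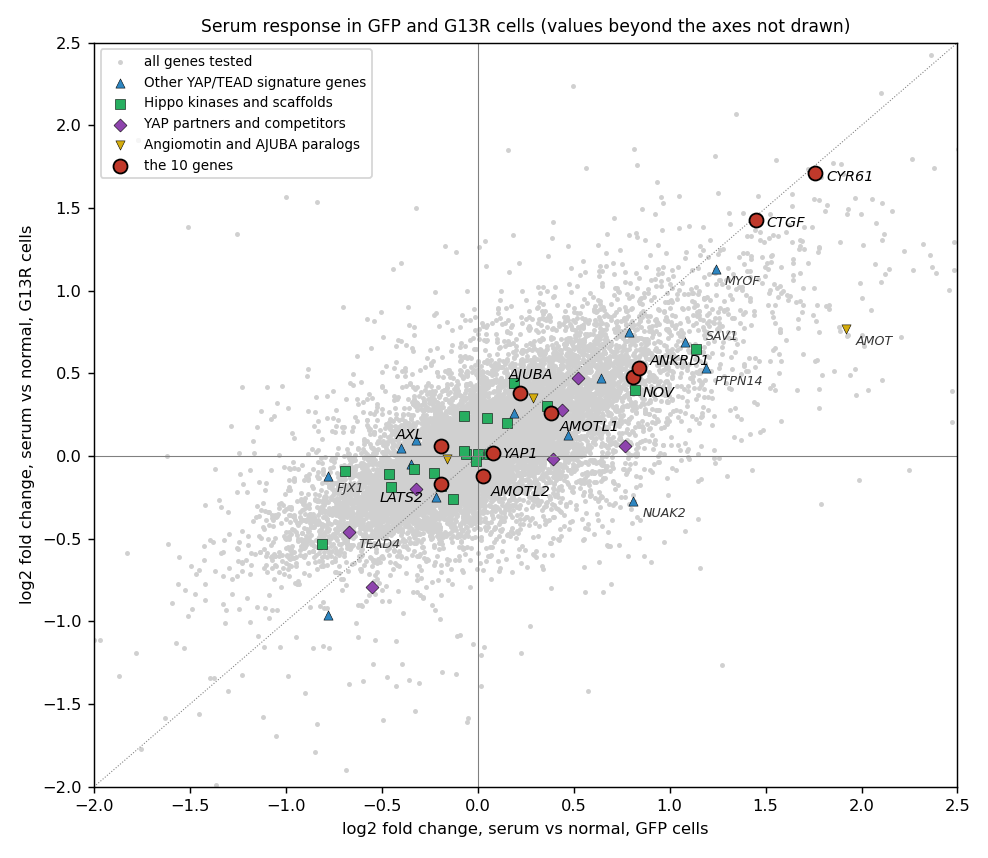
Log2 fold change after serum in GFP cells (x) and in G13R cells (y), each on log2(FPKM + 1), for all genes tested (grey), the 10 genes (red) and 4 pathway lists; the dotted line marks equal responses. CYR61 and CTGF lie near that line at the upper right, ANKRD1 and NOV to its right, and AMOT far to its right; FJX1 is labelled although chosen after its values were seen.

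Similarity of pattern over the 8 libraries was measured for each gene. For CTGF the genes most like it, by Pearson r of log2(FPKM + 1) over 8 libraries among 9358 candidates, were CD9 (0.998), TNFRSF11B (0.996) and RGS16 (0.994). For CYR61 they were ARRB1, PCYT2 and KIAA0754, all at 0.998. ANKRD1 was most like CYP51A1 (0.989), CALCOCO1 and USP35 (both 0.988), NOV most like RTKN2 (0.985), and AJUBA most like RAB30 (0.993). CTGF and CYR61 correlated with each other at 0.988, and CTGF with ANKRD1 at 0.965. NOV correlated with AJUBA at 0.934 and with CTGF at 0.709. These values describe 8 libraries that fall into 4 groups, and the points share the step between normal growth and serum.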

How the data were processed

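The authors deposited 1 table of FPKM values per gene and library, per the file headers. TopHat2 2.0.13, Cufflinks 2.2.1 and the builds hg19 and BDGP5 are named in the submitters' processing notes, and the annotation and the strand setting of the counting are not given in the sources used here. The columns were matched to the 8 libraries by name, and 1 was added to each start, because the spans of olfactory receptor genes fit starts that count from 0. Exons of CTGF, AMOTL1, AXL and YAP1 overlap another gene on the opposite strand, and those of AMOTL2 and AJUBA another on the same strand, so their values may hold shared reads.

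All 8 libraries were fitted together in limma 3.58.1 (R 4.3.3) with 4 group means and an intensity trend, on log2(FPKM + 1). A gene was tested where 2 or more libraries reached 1 FPKM. It was called at a Benjamini-Hochberg adjusted p under 0.05 over all genes tested, with 4 residual degrees of freedom. A run on simulated, normally distributed values with planted changes checked the code for serum in GFP cells only. It says nothing of the results given here. A log2 fold change on this scale understates the change of low genes. The members and lists were chosen with earlier results of these data known. Named were the 10 genes, up to 4 called genes per list and comparison, the 3 genes of most similar pattern, and ACTB. Alternatives left out each library, used the replicate number as a block or only the compared libraries, dropped the trend, scaled by median ratios or quantiles, set the pseudocount to 0.1, removed the filter or raised it to 5 FPKM, and asked for a 2-fold minimum. Leaving out a library leaves its group with 1, which is then assumed to vary like the others.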

Additional observations from a re-analysis of the deposited data

Results flagged for a closer look

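For a pair of signature genes outside the 10, both serum libraries lay on one side of both normal-growth libraries in GFP cells and on the other side in G13R cells. The share of all genes with such a pattern was not counted, so the pair is no result about the signature. GADD45A, a stress gene, read 137.1 and 118.2 FPKM in GFP serum, below 176.5 and 161.0 in GFP normal, and 174.7 and 173.0 in G13R serum, above 171.5 and 165.3 in G13R normal. It was called lower in GFP cells, a call lost without GFP normal replicate 1 (adjusted p = 0.0714 in limma) or with quantile normalization, and in G13R cells it was not called (log2 fold change 0.05, limma adjusted p = 0.773). The difference of its responses was 0.45 on the log2 scale, and limma's test of it did not pass (adjusted p = 0.275). NUAK2, a kinase, read 1.631 and 3.169 FPKM in GFP serum, above 0.8455 and 0.9261 in GFP normal, and 0.9629 and 0.7364 in G13R serum, below 1.153 and 1.31 in G13R normal. It was called higher in GFP cells (0.81 ± 0.25, limma adjusted p = 0.0331) in the fit of all libraries and in 9 of 15 alternative settings. Without GFP serum replicate 2 its log2 fold change was 0.48 and the call was lost, and leaving out either GFP normal library also ended the call. In G13R cells NUAK2 was not called (-0.27, limma adjusted p = 0.505). The difference was -1.09, and limma's test of it did not pass either (adjusted p = 0.308). GADD45A was chosen after its values were seen.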

How the results depend on the processing

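CTGF and CYR61 were called higher after serum in both kinds of cell under all 16 settings, and ANKRD1 in GFP cells. With a 2-fold minimum 2 of the 10 genes were called in each kind of cell. Leaving out 1 library gave 3 to 5 called in GFP cells, 2 to 4 in G13R cells, 0 to 1 for G13R against GFP in normal growth and 0 to 3 after serum. After serum, 1 was called with the filter at 5 FPKM.

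Same-numbered replicates are not stated to share a culture. Their deviations correlated at 0.017 to 0.121, which cannot tell whether the numbers pair them. With the replicate number as a block, 1 of the 10 genes (AJUBA) was called between G13R and GFP in normal growth and 1 (NOV) in serum, and all genes called went from 6 to 83 and from 107 to 403.

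Over all genes, 3985 were called for serum in GFP cells, 688 with the 2-fold minimum and 2155 to 4263 without 1 library. In G13R cells it was 1675, with 932 without the filter, 1071 without the trend, 295 with the 2-fold minimum and 413 to 2366 without 1 library. For G13R against GFP in normal growth the 6 became 14 with the filter at 5 FPKM, 12 under quantile normalization, 14 with only the compared libraries and 4 to 109 without 1 library. After serum the 107 became 4 without the filter, 263 with the filter at 5 FPKM, 180 under quantile normalization, 6 without the trend, 6 with only the compared libraries, 47 with the 2-fold minimum and 5 to 1620 without 1 library. The difference of responses went from 0 to 1 with a pseudocount of 0.1, 2 under quantile normalization and 0 to 486 without 1 library. The cause was not tested. No other call of the 10 genes changed under the block.

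Of 790 values of the 10 genes, 40 changed sign and 0 of these were called. Under median-ratio scaling the log2 value was -0.025 for YAP1 after serum in G13R cells, 0.042 for AMOTL2 and 0.038 for LATS2 for G13R against GFP in normal growth, and -0.003 for LATS2 in the difference of responses. Under quantile normalization, G13R against GFP in normal growth was 0.084 for AMOTL2, 0.027 for LATS2 and 0.04 for AXL. Leaving out 1 library gave, for serum in GFP cells, -0.058 to 0.123 for AMOTL2 and -0.007 to 0.158 for YAP1. In G13R cells it gave -0.008 to 0.530 for AMOTL1, -0.006 to 0.126 for AXL and -0.011 to 0.059 for YAP1. For G13R against GFP in normal growth it gave -0.025 to 0.210 for ANKRD1, -0.445 to 0.092 for AMOTL1, -0.086 to 0.043 for AMOTL2 and -0.200 to 0.155 for LATS2. After serum it gave -0.127 to 0.131 for LATS2. For the difference of responses it gave -0.102 to 0.048 for CTGF, -0.225 to 0.122 for CYR61, -0.387 to 0.151 for AMOTL1, -0.153 to 0.202 for LATS2 and -0.134 to 0.031 for YAP1.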
